A study of Homo sapiens with 4 samples.

Results

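Genes that the estrogen receptor is known to switch on were followed in BT474, an established human breast cancer line that carries both the estrogen receptor and amplified HER2. The 33 genes described here were taken by symbol from the 33538 genes of a single-cell RNA-seq count matrix: PDZK1, MYB, IGFBP4, CA12, SIAH2, ABCA3, RET, ELOVL2, CXCL12, STC2, SGK3, FKBP4, HSPB8, ADCY9, CELSR2, KRT13, RAPGEFL1, OLFM1, SLC9A3R1, TPD52L1, MREG, KCTD6, SLC39A6, KDM4B, RAB31, SVIL, PKIB, CISH, AGR2, AGR3, WFS1, SUSD3 and PRSS23. They leave out the most used reporters of the receptor, such as PGR and GREB1, which are part of a second list of other targets. Cells in serum-containing medium were exposed for 4 h to the vehicle DMSO, to 100 nM fulvestrant, to 200 nM neratinib or to both drugs at these doses. Each group was 1 library of droplet-captured cells read at the 3′ ends of transcripts. The question put to each gene was whether its level followed fulvestrant, neratinib or both.

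The estrogen receptor is a transcription factor that hormone binding activates. It binds DNA at a palindrome of the arms GGTCA and TGACC set 3 bases apart, or at one arm of it, mostly at enhancers far from the genes it regulates, and it draws in coactivators that raise transcription. Fulvestrant is an antagonist that also marks the receptor for degradation. Neratinib binds covalently to the HER-family receptor kinases, which in HER2-amplified cells drive the ERK and PI3K-AKT pathways. The genes followed here encode secreted factors, kinases and receptors, transcription and ubiquitin factors, transporters, chaperones and cytoskeletal proteins.

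Cells were barcodes with at least 5000 UMIs (unique transcript tags) and at least 500 genes. They numbered 4301 in the DMSO library, 3485 under fulvestrant, 3507 under neratinib and 3876 under both drugs, and held 102504452, 83642623, 82967775 and 91091724 UMIs in that order. Median depth lay between 22007 and 23010 UMIs per cell, and any pair of libraries shared 2 to 6 cell barcodes. Of 9 luminal epithelial markers 9 were measured, with a summed level of 5203 to 8108 CPM. Of 4 basal markers VIM alone reached 1 CPM (summed level 45.6 to 55.3 CPM), of 5 fibroblast markers COL1A1 (10.2 to 12.4), of 3 endothelial markers VWF (1.76 to 2.49) and of 5 immune markers none (1.31 to 1.74). Basal markers KRT5 and KRT14, fibroblast markers COL1A2 and COL3A1, and immune markers PTPRC and CD3E each had at most 2 UMIs in any library. Other markers under 1 CPM were seen more often. Basal marker TP63 had 17 to 36 UMIs per library, and immune markers CD68, LYZ and CD79A had 52 to 66, 35 to 41 and 26 to 51. The libraries also differed in mitochondrial content, whose median was 16.2% of UMIs in DMSO cells, 16.7% with fulvestrant and 21.1% in either library with neratinib. The neratinib label was matched by 12 measured genes of ERK output, all called lower against DMSO, with a median log2 ratio of -1.67.

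Values are CPM, the UMIs of a gene summed over the cells of a library and put on a common total for all libraries. Ratios are log2 ratios of CPM between libraries, with 95% intervals that cover counting error only. Because a group is 1 library, none of the differences has a replicate check and no p-value is given. A gene was measured where its mean over the 4 libraries was at least 1 CPM, which 12136 genes and 30 of the 33 reached. It was called lower or higher where the log2 ratio was at least 0.32 in size (the fold threshold) with an interval off 0. Fulvestrant was read in 2 pairs with no library in common, as fulvestrant against DMSO and as both drugs against neratinib. Neratinib was read in the same manner, against DMSO and as both drugs against fulvestrant. A gene is said to follow a drug where both of its pairs were called in the same direction.

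To set the promoters of these genes beside their levels, RefSeq windows from 250 bases before to 50 bases after a transcription start (build GRCh38.p14) were searched on both strands. The table held windows for 28 of the 33 genes, 40 windows in all. The full palindrome (GGTCA, any 3 bases, TGACC) was in none of the 40 windows and in 0.057% of all 35116 windows. One arm, GGTCA or TGACC, was in a window of 11 genes (12 of 40 windows, against 37.4% of all windows). Of the 9 genes with a window that follow fulvestrant downwards, 3 held an arm (STC2, MREG and CXCL12), and of the other 19 genes 8 did. The letters TTCNNNGAA, the core that STAT factors recognise, were searched after the values were seen, because CISH is a textbook STAT5 target. They were in the window of CISH alone among the 28 genes, in 4 copies, while 7.66% of all windows held a copy and 7 windows in the table held at least 4. The 250 bases before the start are printed for CISH, the gene with the largest differences in the fulvestrant pairs, with the TTCNNNGAA copies in capitals, and for AGR3, the only gene of the 28 with both a GGTCA and a TGACC, with these in capitals. CISH lies on the minus strand at chr3:50611775-50612024 and AGR3 on the minus strand at chr7:16881984-16882233. Each is read 5′ to 3′ towards the start of transcription.
CISH: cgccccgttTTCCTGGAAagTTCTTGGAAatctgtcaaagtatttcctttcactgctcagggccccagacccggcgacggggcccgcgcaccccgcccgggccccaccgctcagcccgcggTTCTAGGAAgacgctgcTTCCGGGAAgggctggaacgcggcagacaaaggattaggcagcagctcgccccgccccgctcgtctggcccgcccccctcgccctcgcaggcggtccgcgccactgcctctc
AGR3: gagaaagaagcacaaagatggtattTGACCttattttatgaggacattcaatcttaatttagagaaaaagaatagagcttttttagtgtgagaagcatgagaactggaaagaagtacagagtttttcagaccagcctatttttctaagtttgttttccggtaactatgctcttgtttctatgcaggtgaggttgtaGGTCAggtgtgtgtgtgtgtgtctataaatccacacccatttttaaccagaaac
In CISH the copies begin 241, 230, 129 and 112 bases before the start, and in AGR3 the arms begin 225 and 54 bases before it. These matches describe letters and are no evidence of binding.

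Of the 30 measured genes, 10 followed fulvestrant and all 10 were lower: CISH, STC2, CXCL12, SIAH2, SUSD3, MREG, HSPB8, SGK3, MYB and IGFBP4. None was higher in both fulvestrant pairs. Over all 12136 genes, 0.791% were lower and 0.206% higher in both of these pairs. The genes followed here were chosen with earlier results of these data known, so their counts are not independent of the data. In fulvestrant against DMSO 10 of the 30 were called lower and 0 higher, beside 1.8% and 1.23% of all genes. In both drugs against neratinib 11 were called lower and 0 higher, beside 2.0% and 1.57% of all genes, the added gene being AGR3. The median log2 ratio of the 30 was -0.23 and -0.21 in these pairs, and that of all genes was 0.0025 and 0.013.

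Neratinib gave larger counts against a much larger background. Of the 30 genes, 12 followed it downwards: CA12, STC2, FKBP4, ADCY9, OLFM1, SLC9A3R1, TPD52L1, KCTD6, CISH, AGR2, WFS1 and PRSS23. One gene, SGK3, followed it upwards. Among all genes 28.3% were lower and 11.4% higher in both neratinib pairs. In neratinib against DMSO 15 of the 30 were called lower and 1 higher, beside 33.3% and 13.6% of all genes. In both drugs against fulvestrant 16 were called lower and 2 higher, beside 32.4% and 13.8%. The median log2 ratio was -0.32 and -0.37 for the 30 genes and -0.16 and -0.15 for all genes. The genes lower with neratinib are thus counted against a background that covers a large share of the transcriptome.

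With both drugs against DMSO, 22 of the 30 genes were lower and 0 higher, beside 33.3% and 14.9% of all genes, and their median log2 ratio was -0.71 against -0.15. The 33 genes together held 0.185% of the UMIs of DMSO cells, 0.163% under fulvestrant, 0.140% under neratinib and 0.118% under both drugs. AGR2, which holds more UMIs than any other of them, differed between the libraries in the same order.

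**Figure D1:**
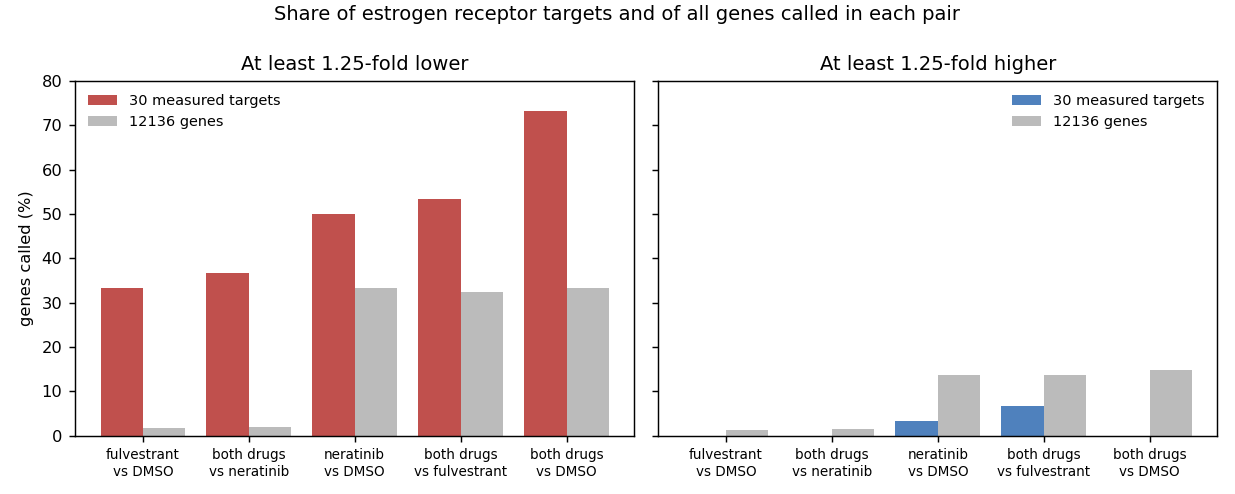
The share of genes called in each of the 5 pairs of libraries is plotted in percent, lower calls on the left and higher calls on the right, for the 30 measured estrogen receptor targets (coloured bars) and for all 12136 genes (grey bars). In the pairs that read fulvestrant, 33.3% and 36.7% of the targets were lower beside 1.8% and 2.0% of all genes, while in the neratinib pairs the grey bars reach 33.3% and 32.4%.

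At a mean of at least 10 CPM, which 18 of the genes reached, 5 and 6 were lower and 0 higher in the fulvestrant pairs, beside 0.981% and 1.06% of all such genes lower and 0.207% and 0.193% higher. In the neratinib pairs 8 and 10 of the 18 were lower and 1 higher, beside 32.5% and 31.3% lower and 8.14% and 8.16% higher. With both drugs against DMSO 14 were lower and 0 higher, beside 32.9% and 8.83%.

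Among the 5 secreted proteins, STC2 and CXCL12 had the largest differences in the fulvestrant pairs. STC2 (stanniocalcin 2, a secreted glycoprotein) stood at 16.8 CPM in DMSO cells, 8.87 with fulvestrant, 8.29 under neratinib and 3.1 under both. Either drug alone thus left a similar level, and the pair of drugs left the lowest of the 4. The log2 ratio was -0.92 (interval -1.05 to -0.80) for fulvestrant against DMSO and -1.42 (-1.63 to -1.22) for both drugs against neratinib. For neratinib it was -1.02 against DMSO and -1.52 against fulvestrant, so STC2 followed both drugs. STC2 was 5.42-fold lower with both drugs than in DMSO.

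CXCL12, the chemokine that binds CXCR4, was a sparse transcript with 220, 91, 128 and 82 UMIs in the DMSO, fulvestrant, neratinib and both-drug libraries. These correspond to 2.15, 1.09, 1.54 and 0.90 CPM. It was lower in both fulvestrant pairs, with log2 ratios of -0.98 (-1.35 to -0.62) and -0.78 (-1.20 to -0.37). With neratinib it was lower in 1 pair, at -0.48 against DMSO, while the interval against fulvestrant, -0.72 to 0.17, included 0.

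IGFBP4 binds and holds back insulin-like growth factors. Its level was 67.4 CPM in DMSO, 52.5 under fulvestrant, 55.1 under neratinib and 39.3 under both drugs, a stepwise order in which the single drugs lie close together. The log2 ratios for fulvestrant were -0.36 and -0.49, both called. For neratinib they were -0.29, short of the fold threshold, and -0.42, which passed.

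The remaining secreted proteins followed neratinib and not fulvestrant. PRSS23, a secreted serine protease, stood at 42.8, 35.1, 25.5 and 21.8 CPM in DMSO, fulvestrant, neratinib and both drugs. Its neratinib log2 ratios were -0.75 and -0.69, and its fulvestrant ratios of -0.29 and -0.23 had intervals off 0 but missed the fold. OLFM1, a glycoprotein of the olfactomedin family, stood at 23.1, 21.3, 15.6 and 14.2 CPM, with neratinib ratios of -0.57 and -0.58.

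**Figure D2:**
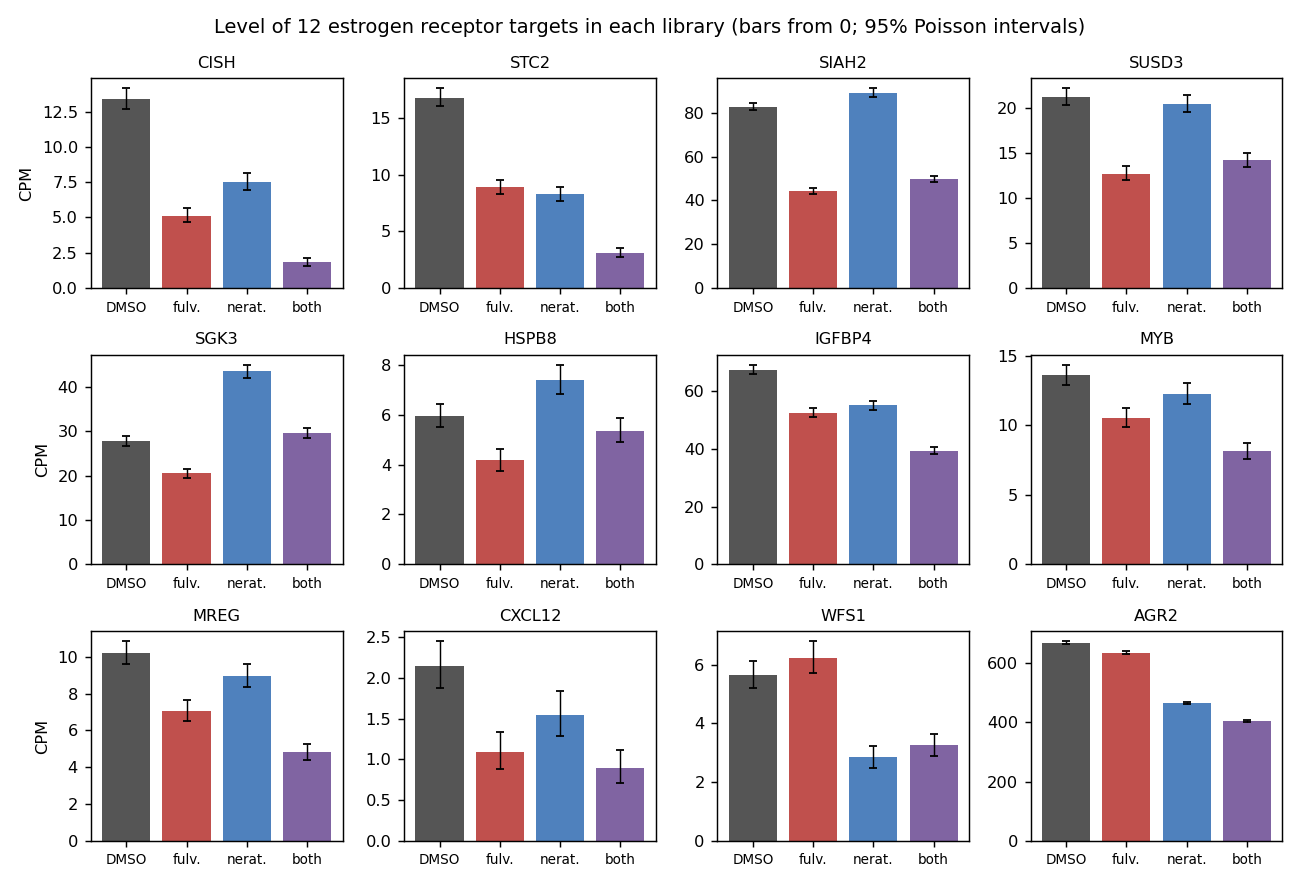
Bars give the level in CPM of 12 of the genes in the DMSO, fulvestrant, neratinib and both-drug libraries, on axes that start at 0, with 95% Poisson intervals for counting error. CISH and STC2 step down with each drug, SIAH2 and SUSD3 are low in the fulvestrant and both-drug bars, SGK3 and HSPB8 are highest with neratinib alone, and WFS1 and AGR2 are low in the neratinib and both-drug bars.

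CISH, of the 8 genes in signalling, had the largest ratios of all 30 in both fulvestrant pairs. It encodes a member of the SOCS family that is induced by STAT5 and damps cytokine receptor signalling. CISH stood at 13.4 CPM in DMSO (1377 UMIs), 5.13 under fulvestrant (429), 7.55 under neratinib (626) and 1.84 with both drugs (168). The 4 libraries are well apart, and no 2 of their counting intervals overlap. Fulvestrant went with a log2 ratio of -1.39 (-1.55 to -1.23) against DMSO and -2.03 (-2.29 to -1.78) when neratinib was present. Neratinib went with -0.83 (-0.97 to -0.69) and -1.48 (-1.74 to -1.21). With both drugs CISH was 7.28-fold lower than in DMSO.

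CISH shares its locus with MAPKAPK3 on the opposite strand, and the sources used here do not give the strand setting of the counting. MAPKAPK3 stood at 9.22, 8.32, 5.92 and 5.71 CPM in DMSO, fulvestrant, neratinib and both drugs. It differed less than CISH between the libraries with and without fulvestrant. With neratinib it was lower, as CISH was, and its part in the CISH ratios was not tested. Among the 33 genes, 13 overlap another gene of the matrix in GENCODE 29.

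SGK3 was lower with fulvestrant and higher with neratinib. This serine/threonine kinase is a relative of AKT that PI3K signalling activates. Its level was 27.8 CPM in DMSO, 20.5 under fulvestrant, 43.5 under neratinib and 29.5 under both drugs, so the neratinib library was the highest and the fulvestrant library the lowest. Fulvestrant log2 ratios were -0.44 (-0.52 to -0.35) and -0.56 (-0.63 to -0.49). Neratinib ratios were 0.65 (0.58 to 0.72) and 0.53 (0.44 to 0.62). With both drugs against DMSO the ratio was 0.09 (0.01 to 0.17), which was not called. Being lower with fulvestrant and higher with neratinib in all 4 of these pairs was a pattern of 0.14% of all genes. SGK3 overlaps C8orf44 on the same strand, so a part of its UMIs may be shared with that gene. C8orf44 stood at 3.97, 3.61, 9.61 and 10.0 CPM in DMSO, fulvestrant, neratinib and both drugs, higher in the libraries with neratinib as SGK3 was, and its part in the SGK3 ratios was not tested.

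SUSD3, a cell-surface protein with a sushi domain, followed fulvestrant and was called in neither neratinib pair. It stood at 21.2 CPM in DMSO and 20.4 with neratinib, against 12.7 under fulvestrant and 14.2 with both drugs. The fulvestrant ratios were -0.74 (-0.85 to -0.64) and -0.53 (-0.63 to -0.42).

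Adenylyl cyclase ADCY9, which makes cyclic AMP, followed neratinib and was called in neither fulvestrant pair. It had 338, 228, 145 and 125 UMIs in DMSO, fulvestrant, neratinib and both drugs, or 3.30, 2.73, 1.75 and 1.37 CPM. The neratinib ratios were -0.92 (-1.21 to -0.63) and -0.99 (-1.32 to -0.67). Its fulvestrant ratios were also below 0. The ratio against DMSO, -0.27 (-0.52 to -0.03), missed the fold. That of both drugs against neratinib, -0.35 (-0.71 to 0.006), had an interval that included 0. The latter was called lower in G1 cells and with median-of-ratios scaling. PKIB, an inhibitor of the cyclic AMP-dependent protein kinase, had smaller differences. Its levels were 102, 86.5, 79.0 and 71.5 CPM, and it was called with neratinib against DMSO (-0.37) but not against fulvestrant (-0.28). RAPGEFL1, related to exchange factors of Rap GTPases, stood at 4.06, 3.32, 3.13 and 2.99 CPM and was likewise called for neratinib against DMSO (-0.37) and not for both drugs against fulvestrant (-0.15). With both drugs against DMSO its ratio was -0.44, which was called.

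The receptors of this group were not called in any pair, RET, the receptor tyrosine kinase of the GDNF family ligands, and CELSR2, an adhesion receptor of the cadherin family. RET stood between 13.8 and 16.6 CPM in the 4 libraries and CELSR2 between 5.30 and 6.40. The lowest RET ratio was -0.26 (-0.37 to -0.16), for neratinib against DMSO.

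SIAH2, an E3 ubiquitin ligase, was the clearest fulvestrant follower of the group of transcription, chromatin and ubiquitin factors. Its level was 83.0 CPM in DMSO and 89.2 with neratinib, against 44.3 with fulvestrant and 49.7 with both drugs. The levels thus fall into a higher pair without fulvestrant and a lower pair with it. The fulvestrant ratio was -0.90 (-0.96 to -0.85) without neratinib and -0.84 (-0.90 to -0.79) with it. The neratinib ratios of SIAH2 were 0.10 and 0.17, both short of the fold.

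MYB, a transcription factor of proliferating progenitor cells, was lower by less. It stood at 13.6, 10.5, 12.3 and 8.15 CPM in DMSO, fulvestrant, neratinib and both drugs. Fulvestrant ratios were -0.37 (-0.49 to -0.25) and -0.59 (-0.73 to -0.45). The neratinib ratio was -0.15 against DMSO and -0.37 against fulvestrant, of which the second was called. That call held in 4 of 10 alternative choices of cells or scaling, with ratios from -0.60 to -0.18. Among the losses were G1 cells, S cells and median-of-ratios scaling.

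KCTD6, an adaptor of cullin ubiquitin ligases, had 223, 207, 144 and 134 UMIs, or 2.18, 2.47, 1.74 and 1.47 CPM. It was called lower in both neratinib pairs, narrowly against DMSO (-0.33, interval -0.64 to -0.02) and more clearly against fulvestrant (-0.75). The call against DMSO held in 4 of 10 alternative choices of cells or scaling, and that against fulvestrant in 10 of 10. Among the losses were G1 cells, G2M cells, the mean of cell shares and median-of-ratios scaling. Among cells with over 20% mitochondrial UMIs, where KCTD6 had 16 UMIs in the DMSO library, its ratio of neratinib to DMSO was 0.52. The histone demethylase KDM4B was not called in any pair and stood between 15.9 and 18.2 CPM.

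None of the 4 measured genes of transport, scaffolding, pH and lipids followed fulvestrant. CA12, a membrane carbonic anhydrase that acidifies the outside of the cell, stood at 27.6, 23.5, 16.4 and 14.9 CPM in DMSO, fulvestrant, neratinib and both drugs. Its neratinib ratios were -0.75 (-0.85 to -0.66) and -0.66 (-0.76 to -0.56). SLC9A3R1, the scaffold also called NHERF1, stood at 190, 165, 132 and 114 CPM, with neratinib ratios of -0.53 and -0.54 and fulvestrant ratios of -0.20 and -0.21. The latter had intervals off 0 but missed the fold.

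The zinc importer SLC39A6 was nearly level. It ranged from 71.4 to 76.4 CPM, and every one of its 5 ratios lay between -0.08 and 0.06. The lipid transporter ABCA3 lay between 4.78 and 5.28 CPM and was also not called. PDZK1, a scaffold with PDZ domains, and ELOVL2, an elongase of fatty acids, were under 1 CPM. PDZK1 had 55, 27, 34 and 52 UMIs in the 4 libraries and ELOVL2 had 10, 8, 7 and 14. The level minimum kept PDZK1 from being called, although its log2 ratio was -0.73 (-1.45 to -0.04) for fulvestrant against DMSO and 0.82 (0.13 to 1.55) for both drugs against fulvestrant. For both drugs against neratinib it was 0.48 (-0.17 to 1.15), of the opposite sign to the other fulvestrant pair.

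Of the 5 chaperone and endoplasmic reticulum genes, AGR2, WFS1 and FKBP4 followed neratinib downwards, beside 28.3% of all genes, HSPB8 followed fulvestrant and AGR3 followed neither. AGR2, a disulfide isomerase of the secretory pathway, stood at 669 CPM in DMSO, 636 under fulvestrant, 466 under neratinib and 406 under both drugs. Its neratinib ratios were -0.52 (-0.54 to -0.50) and -0.65 (-0.67 to -0.63). The fulvestrant ratios of AGR2 were -0.07 and -0.20, with narrow intervals off 0 and well short of the fold.

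AGR3, the neighbouring relative of AGR2, had 37.3 CPM in DMSO, 31.2 under fulvestrant, 30.0 under neratinib and 22.6 under both. Each of its pairs lay close to the threshold: the fulvestrant ratios were -0.26 and -0.41 and the neratinib ratios -0.32 and -0.46. The second of each was called and the first was not, with the -0.32 just short of the threshold. With both drugs AGR3 was 1.65-fold lower than in DMSO, as was AGR2.

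WFS1, a membrane protein of the endoplasmic reticulum, had 579, 522, 236 and 296 UMIs in DMSO, fulvestrant, neratinib and both drugs, or 5.65, 6.24, 2.84 and 3.25 CPM. The 2 libraries without neratinib were the high ones. The neratinib ratios were -0.99 (-1.21 to -0.77) and -0.94 (-1.15 to -0.73), while both fulvestrant ratios were above 0 with intervals that included it. FKBP4, the HSP90 partner that holds steroid receptors ready for hormone, showed 221, 206, 145 and 135 CPM. Its neratinib ratio was -0.61 in both pairs, and its fulvestrant ratios were -0.10 and -0.11.

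HSPB8, a small heat shock protein of protein quality control, was like SGK3 highest under neratinib and lowest under fulvestrant. It stood at 5.95 CPM in DMSO, 4.17 under fulvestrant, 7.39 under neratinib and 5.36 under both drugs. Fulvestrant ratios were -0.51 (-0.71 to -0.32) and -0.46 (-0.64 to -0.29). The neratinib ratios were 0.31, just under the fold, and 0.36, just over it. HSPB8 was higher in cells with over 20% mitochondrial UMIs than in the other cells of the same library, by 0.32, 0.34, 0.61 and 0.68 on the log2 scale in DMSO, fulvestrant, neratinib and both drugs. Among cells with at most 20% its ratio of both drugs to fulvestrant was -0.03 and that of neratinib to DMSO -0.04. The higher call of both drugs against fulvestrant was thus lost there. That call was also lost in cells with over 20%, in G1 cells and in S cells, whereas SGK3 kept it in all of these.

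Of the cytoskeletal and vesicle genes, MREG followed fulvestrant. MREG, melanoregulin, acts in the transport of organelles. It stood at 10.2, 7.08, 8.97 and 4.81 CPM in DMSO, fulvestrant, neratinib and both drugs, with fulvestrant ratios of -0.53 (-0.68 to -0.38) and -0.90 (-1.07 to -0.73). With neratinib it was called lower against fulvestrant (-0.56) and not against DMSO (-0.19). MREG overlaps PECR on the same strand, which stood between 3.22 and 3.44 CPM.

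TPD52L1, of the TPD52 family of vesicle proteins, followed neratinib at 112, 101, 84.1 and 78.8 CPM, with ratios of -0.42 and -0.36. It overlaps HDDC2 on the opposite strand, which stood at 93.9, 91.0, 62.5 and 61.1 CPM, so the source of a part of these UMIs cannot be told apart here. SVIL, an actin-binding protein, showed 23.6, 22.6, 19.0 and 18.2 CPM and was called only with both drugs against DMSO (-0.38). The small GTPase RAB31 stood between 1.39 and 1.68 CPM and was not called. KRT13, a keratin, had 11, 11, 3 and 2 UMIs and was not measured.

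**Figure D3:**
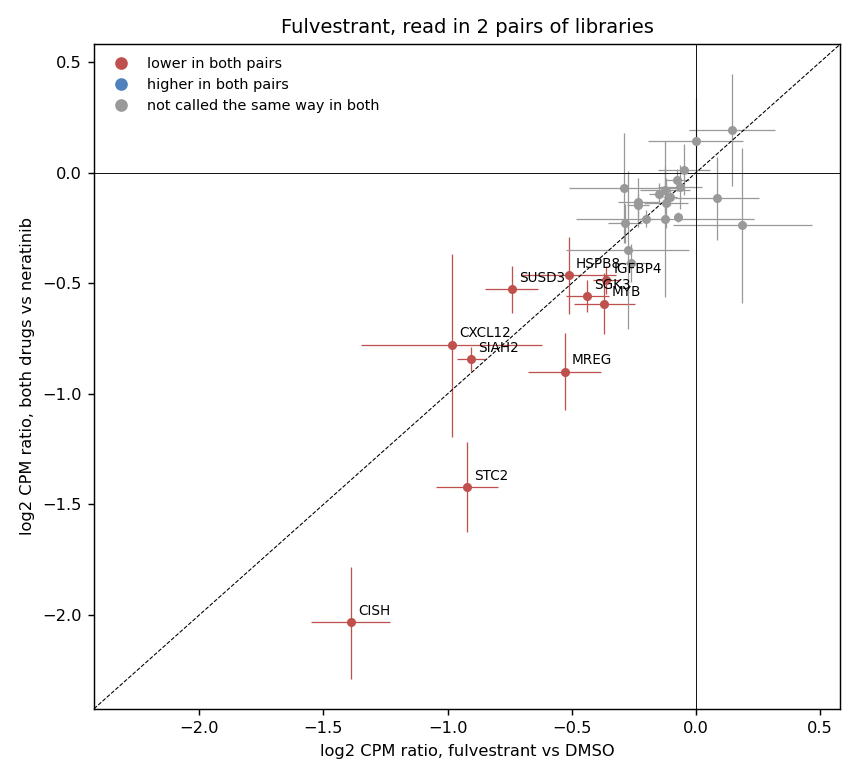
Each point is one of the 30 measured genes, with its log2 CPM ratio of fulvestrant to DMSO on the x axis and of both drugs to neratinib on the y axis, lines for 95% counting intervals and a dashed line of equal values. The 10 red genes, lower in both pairs, include CISH at -1.39 and -2.03 and STC2 at -0.92 and -1.42, both below the dashed line, and no gene was higher in both.

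Setting the pairs that share no library beside each other gives a measure of how far the 30 genes repeat. For fulvestrant, 26 of the 30 had the same sign in both pairs, with Pearson's r of 0.903 and Spearman's rho of 0.827 across genes. For neratinib 28 of 30 had the same sign, with r of 0.903 and rho of 0.890. These are descriptions across genes of the same 4 libraries, and genes are not independent replicates. Counts of genes with the same sign were not taken over all genes. The median absolute difference between the pairs was 0.093 on the log2 scale, and the largest, 0.64, was that of CISH. For each gene this difference equals in size the departure from additivity given below, for either drug. With 1 library per group, a failure to repeat and a joint effect of the drugs cannot be told apart.

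**Figure D4:**
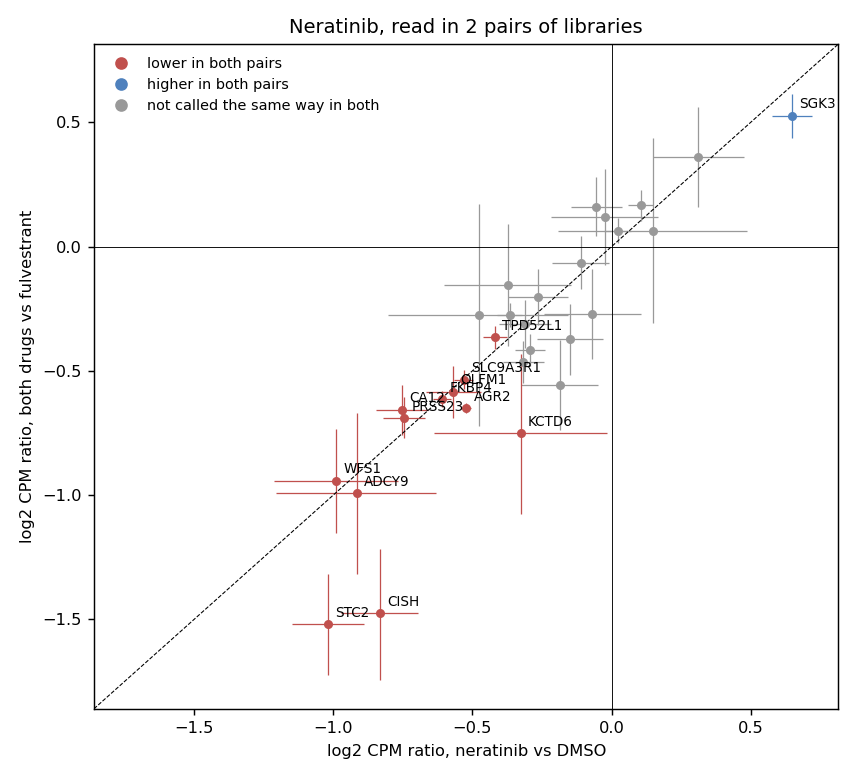
The axes give the log2 CPM ratio of neratinib to DMSO (x) and of both drugs to fulvestrant (y) for the same 30 genes, with 95% counting intervals and a dashed line of equal values. The 12 red genes were lower in both pairs, STC2 and CISH with the lowest y values of -1.52 and -1.48, and SGK3, in blue at 0.65 and 0.53, was the only gene higher in both.

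Taking the drugs together, 2 of the 30 genes, STC2 and CISH, followed both drugs downwards, a pattern of 0.272% of all genes. SGK3 followed fulvestrant down and neratinib up. Another 7 followed fulvestrant only (SIAH2, SUSD3, HSPB8, CXCL12, MYB, MREG and IGFBP4), although 5 of the 7, all but SIAH2 and SUSD3, were also called in 1 neratinib pair. A further 10 followed neratinib only, all downwards. The remaining 10 followed neither: SLC39A6, KDM4B, RET, CELSR2, ABCA3 and RAB31 were called in no pair, and AGR3, PKIB, RAPGEFL1 and SVIL were called in at most 1 pair of either drug. An effect called for one drug and not for the other is not thereby shown to differ between them.

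For 3 genes the combination lay below the sum of the single drugs. The departure from additivity is the log2 level with both drugs, minus that with fulvestrant, minus that with neratinib, plus that in DMSO. It was -0.64 (-0.93 to -0.35) for CISH, -0.50 (-0.74 to -0.27) for STC2 and -0.37 (-0.60 to -0.15) for MREG. No gene of the 30 lay above additivity by this rule, and among all genes tested 1.83% lay above and 1.55% below. SIAH2, at 0.06 (-0.02 to 0.14), and FKBP4, at -0.0047 (-0.051 to 0.041), lay near 0. The 3 departures depended on which cells were counted. In cells with at most 20% mitochondrial UMIs the departure of CISH was -0.91 and of MREG -0.47, while that of STC2 was -0.17 (-0.49 to 0.15) and not called. In cells with over 20%, counted as an alternative added after seeing the data, STC2 was at -0.79 (-1.22 to -0.35), while CISH at -0.19 (-0.75 to 0.37) and MREG at -0.26 (-0.70 to 0.17) were not called. None of the 3 was called in both kinds of cell.

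Some of these genes differed in level between cells scored in different phases of the cell cycle. The share of cells scored in S phase was 20.8% in DMSO, 22.7% under fulvestrant, 15.3% under neratinib and 17.4% under both drugs. The share in G2M was 25.5%, 23.1%, 27.9% and 24.4% in that order. Free RNA can enter such scores, and neither its part in them nor the part of the phase shares in the ratios was tested. MYB was higher in S than in G1 cells of every library, by 0.91, 1.02, 0.72 and 1.00 on the log2 scale in that order. SGK3 was also higher in S than in G1, by 0.99, 1.33, 0.51 and 0.78. IGFBP4 was higher in G2M than in G1 by 1.00, 1.16, 0.92 and 1.01, and OLFM1 was higher in S by 0.82, 0.77, 1.00 and 0.71. HSPB8 went the other way, lower in G2M than in G1 by -1.21, -1.34, -0.97 and -1.02.

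**Figure D5:**
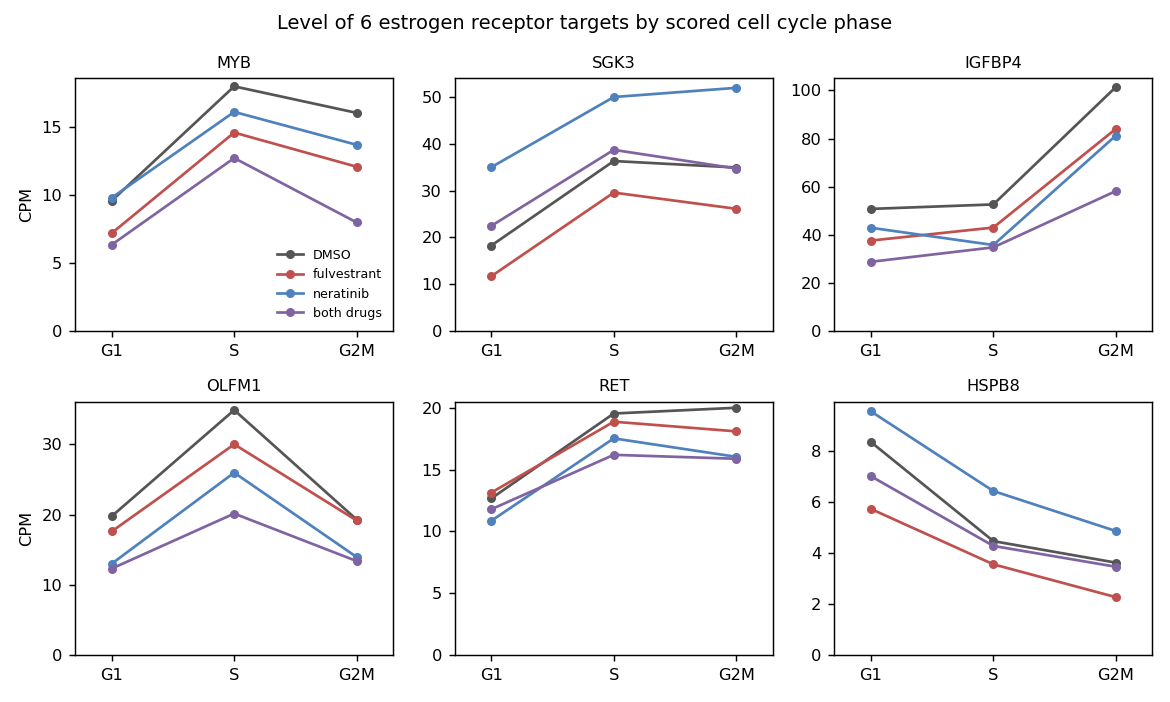
The level in CPM of 6 genes is drawn for cells scored as G1, S and G2M, with a line for each library and axes from 0. MYB and SGK3 are higher in S than in G1 in all 4 libraries, IGFBP4 in G2M and OLFM1 in S, while HSPB8 is highest in G1, and SGK3 of the neratinib library lies above the other 3 lines in every phase.

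Within G1 cells alone all 10 fulvestrant followers kept their call in both pairs. SGK3 in G1 cells stood at 18.3 CPM in DMSO, 11.7 under fulvestrant, 35.0 under neratinib and 22.5 under both drugs, so the order of the libraries was that of all cells. MYB in G1 cells stood at 9.61, 7.22, 9.83 and 6.37 CPM. In S cells, the smallest class with 538 to 895 cells per library, 5 of the 10 lost a call (MYB, IGFBP4, SGK3, HSPB8 and MREG). Of these, IGFBP4 had a log2 ratio of -0.04 for both drugs against neratinib in S cells, and -0.57 in G1 cells. In G2M cells 9 of the 10 kept both calls. The exception was again IGFBP4, at -0.27 for fulvestrant against DMSO. The share of all genes called within a phase was not counted, so these counts have no background. SIAH2 differed little by phase, with 86.5, 74.6 and 84.0 CPM in G1, S and G2M cells of the DMSO library and 46.4, 41.3 and 43.7 with fulvestrant.

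The share of cells with at least 1 UMI gave the same order for the leading genes. For CISH it was 26.0% in DMSO, 11.3% under fulvestrant, 15.8% under neratinib and 4.18% under both drugs. With each cell thinned to 5000 UMIs these shares were 6.70%, 2.38%, 4.02% and 0.955%. SIAH2 was seen in 77.7%, 59.6%, 79.8% and 63.4% of cells, or 32.3%, 19.2%, 35.2% and 23.2% after thinning. AGR2 was seen in 96.1% to 97.6% of cells of every library, and after thinning in 88.5%, 87.9%, 80.6% and 77.9%.

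A single cell line holds no cell type that should lack these genes, so barcodes with 10 to 100 UMIs served as the level in free RNA. SIAH2 in free RNA was 57.7, 29.6, 53.0 and 27.9 CPM in DMSO, fulvestrant, neratinib and both drugs, the same high and low libraries as in cells. CISH in free RNA was 16.4, 4.31, 16.4 and 2.11 CPM, from 68, 16, 52 and 9 UMIs. Its free RNA was lower in the fulvestrant pairs, whereas neratinib against DMSO gave 0.00 (-0.55 to 0.55) there and -0.83 in cells. Of the 10 fulvestrant followers, 5 were lower in both fulvestrant pairs in free RNA too (CISH, STC2, SIAH2, SUSD3 and IGFBP4). The other 5 were not lower in both. MREG (0.02, interval -0.67 to 0.69) and SGK3 (-0.08, interval -0.52 to 0.36) lay near 0 for fulvestrant against DMSO. MYB (0.13, interval -0.53 to 0.80) and CXCL12 (0.38, interval -1.60 to 2.60) lay above 0 for both drugs against neratinib. Called lower in 1 fulvestrant pair were CXCL12, against DMSO (-2.06, interval -4.50 to -0.22), and MREG, for both drugs against neratinib (-1.03, interval -1.82 to -0.27). HSPB8 was also called in the latter pair alone. These free RNA ratios rest on few UMIs, 3 to 14 per library for CXCL12 and 25 to 41 for MREG. RET, not called in cells, was lower in free RNA with both drugs against DMSO (-1.29, interval -2.04 to -0.57), against fulvestrant (-1.04) and against neratinib (-1.01), from 57, 43, 36 and 24 UMIs. Of the 12 genes lower with neratinib, 5 were lower in both neratinib pairs in free RNA (STC2, FKBP4, SLC9A3R1, AGR2 and PRSS23). No level minimum was applied in free RNA. The share of all genes called there was not counted, so these counts cannot be read against a background.

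Because mitochondrial content was higher in both neratinib libraries, the counts were also taken in cells with at most 20% mitochondrial UMIs, which were 85.4% of cells in DMSO, 82.5% under fulvestrant, 37.6% under neratinib and 37.7% under both drugs. All 12 genes that followed neratinib downwards did so there too, as did SGK3 upwards, and all 10 fulvestrant followers kept their calls. CXCL12, SVIL and AGR3, which did not follow neratinib in all cells, followed it downwards there, so CXCL12 then followed both drugs. The share of all genes called was not counted in cells split by mitochondrial content, so these counts have no background. In cells with over 20% mitochondrial UMIs 8 of the 10 kept both fulvestrant calls. The exceptions were MYB, at -0.29 against DMSO, and CXCL12, at -0.45 against DMSO from 18 and 13 UMIs. TPD52L1 and KCTD6 no longer followed neratinib there, while the other 10 did. IGFBP4 and MREG, which did not in all cells, followed neratinib downwards there. In the cells with at most 20%, WFS1 had a log2 ratio of -1.05 for neratinib against DMSO, and SGK3 had 0.69 and, against fulvestrant, 0.59. The all-gene median in the neratinib pairs was -0.13 and -0.11 in these cells.

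The second list, 16 other targets of the receptor (PGR, GREB1, TFF1, TFF3, XBP1, CTSD, AREG, MYC, CCND1, RARA, IGF1R, NRIP1, BCL2, TSKU, PMAIP1 and RERG), was all measured. Like the genes followed here, this list was chosen with earlier results of these data known, so its counts are not independent of the data. In fulvestrant against DMSO 10 of the 16 were lower and 0 higher, beside 1.8% and 1.23% of all genes. In both drugs against neratinib 12 were lower and 0 higher, beside 2.0% and 1.57%. Their median log2 ratios were -0.68 and -0.59. In the neratinib pairs 7 and 9 of the 16 were lower, beside 33.3% and 32.4% of all genes, and 1 and 2 were higher, beside 13.6% and 13.8%. As shares of the list, 43.8% and 56.3% were lower and 6.25% and 12.5% higher. The progesterone receptor gene PGR stood at 143, 81.5, 173 and 93.3 CPM in DMSO, fulvestrant, neratinib and both drugs, the same order of libraries as SIAH2. IGF1R, the receptor of insulin-like growth factors, showed the pattern of SGK3, at 24.9, 16.4, 50.4 and 38.3 CPM, with fulvestrant ratios of -0.60 and -0.40 and neratinib ratios of 1.02 and 1.23. AREG, a ligand of the EGF receptor, showed that of STC2 and CISH, at 69.3, 35.7, 24.2 and 8.47 CPM. The receptor gene ESR1 itself stood at 14.6, 11.9, 18.2 and 12.7 CPM, called lower in both drugs against neratinib (-0.53) and short of the fold in fulvestrant against DMSO (-0.29). These are RNA levels, and receptor protein was not measured.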

How the data were processed

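UMI counts per gene and barcode were deposited by the authors as 1 matrix of 33538 genes. Per the submitters' processing notes it was made with Cell Ranger 3.1.0 and hg19, whereas 33484 gene identifiers were found in GENCODE 29 (GRCh38). Coordinates and promoter sequences are RefSeq's for GRCh38.p14, and no coordinate was taken from the matrix. The number ending each barcode was matched to the number opening each sample title, a mapping no other label states. The sources used here do not say whether read depth was evened between libraries.

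Counts were summed over cells with at least 5000 UMIs and 500 genes. No doublet caller was run and doublets were kept. Ratios of CPM carry exact conditional binomial 95% intervals (scipy 1.17.1), shares Clopper-Pearson and departures from additivity delta-method intervals, the last for genes with at least 20 UMIs in every library. All cover counting error only. Phases were scored with scanpy 1.11.5. The ratio script was tested on simulated counts. The 33 genes are all named, and values in every library are given for each gene called in any pair. The genes and lists were chosen with earlier results of these data known. Alternatives were another scaling, a total without the 13 mitochondrial transcripts, cells by mitochondrial share, phase or UMI number, the mean of cell shares, and other thresholds. Additivity in cells with over 20% mitochondrial UMIs was added after seeing the data.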

Additional observations from a re-analysis of the deposited data

How the results depend on the processing

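No paired analysis was possible because each group is 1 library, and for the same reason no replicate could be left out. The fulvestrant calls were stable to scaling: 10 of 10 followers kept both calls with median-of-ratios scaling, without mitochondrial transcripts in the total, with a library-specific UMI minimum, without cells above 2 times the median UMIs, and in G1 cells. Fulvestrant followers numbered 9 in G2M cells, 6 in S cells, 4 at 1.5-fold and 5 at a mean of at least 10 CPM. At 1.5-fold, in the order of fulvestrant against DMSO, both drugs against neratinib, neratinib against DMSO and both drugs against fulvestrant, 5, 6, 7 and 9 genes were lower, and at 10 CPM 5, 6, 8 and 10. Among the alternatives, the share of all genes was counted at 10 CPM only. Counts at 1.5-fold and in the other alternatives thus cannot be read against a background. Both drugs against DMSO gave 14 lower at 10 CPM. Genes following neratinib downwards were 7 at 1.5-fold and 7 at 10 CPM, and those following both drugs 0 at 10 CPM and 4 in cells with over 20% mitochondrial UMIs.

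Genes higher with neratinib against DMSO were 2 with median-of-ratios scaling, without mitochondrial transcripts, in S cells, in G2M cells and by the mean of cell shares, and, S cells apart, 2 genes (SGK3 and HSPB8) then followed neratinib upwards. At 1.5-fold 0 did. Higher with both drugs against fulvestrant were 1 in cells up to 20% mitochondrial UMIs, over 20%, in G1 cells and at 10 CPM, and 0 at 1.5-fold. In cells over 20%, 1 gene was higher with fulvestrant against DMSO. In G1 cells 1 gene, SUSD3, lay above additivity (0.35). In cells over 20%, an alternative chosen after seeing the data, 1 gene (STC2) lay below additivity. Median-of-ratios scaling moved the all-gene median from -0.16 to -0.06 for neratinib against DMSO and from -0.15 to -0.07 for both drugs against fulvestrant, and TPD52L1 and KCTD6 no longer followed neratinib. Signs turned in cells over 20% for CXCL12 with neratinib against DMSO (0.13) and KCTD6 with neratinib (0.52) and both drugs (0.14) against DMSO, and in cells up to 20% for HSPB8 with both drugs against fulvestrant (-0.029). Where the thresholds and filters changed a count, fewer genes could pass; otherwise the cause was not tested.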

Other observations

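Several of the genes differed between cells of 1 library by their mitochondrial share, whatever the treatment. FKBP4, the HSP90 partner of steroid receptors, was lower in cells with over 20% mitochondrial UMIs than in the others of all 4 libraries, by -0.38, -0.43, -0.38 and -0.40 on the log2 scale in DMSO, fulvestrant, neratinib and both drugs. PRSS23 was higher in such cells, by 0.20, 0.11, 0.20 and 0.24, and the interval for fulvestrant, -0.04 to 0.25, included 0. SUSD3 was higher by 0.14, 0.26, 0.21 and 0.19, with an interval of -0.05 to 0.32 in DMSO. A larger mitochondrial share lowers the CPM of every other gene, so these values are relative to the rest of each cell's RNA.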
